A study of Mus musculus with 4 samples.

Results

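The circadian clock and its output genes were followed in the colonic mucosa of young adult and juvenile mice. The set held 10 genes, Cry1, Cry2, Per1, Per2, Per3, Nr1d1, Nr1d2, Dbp, Tef and Arntl (also named Bmal1), and its members were every gene probe on the arrays whose RefSeq accession belongs to 1 of them. They are 10 of the 17305 genes that could be named on the arrays and 17 of the 41174 distinct gene probes: 5 genes had 1 probe, 3 had 2 and 2 had 3. All 17 passed the filter on dim probes, as did 27065 probes in all. The mucosa was sheared from the colon with a slide, and the study compared total RNA of C57BL/6 mice at postnatal day 90 (P90) with that of C57BL/6 mice at postnatal day 30 (P30) on 4 Agilent arrays read in both dyes and lettered a, b, e, k as in the sample titles, each with 1 P90 RNA and 1 P30 RNA. No treatment or allele is named for either age, and sex, hour of tissue collection and pooling of animals are not given in the sources used here. The P90 RNA was labelled with Cy5 on array e and with Cy3 on the other arrays. The series design calls the 4 comparisons independent but does not tie RNAs to single animals, so the p-values speak of the spread among these pairs only, and that spread may be partly technical.

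The clock of mammalian cells is a feedback loop of transcription. Arntl and its partner Clock bind E-boxes and switch on the Per and Cry genes, whose proteins return to the nucleus and repress them, while the nuclear receptors Nr1d1 and Nr1d2 (REV-ERB alpha and beta) repress Arntl in a second loop. Dbp and Tef encode bZIP factors that carry the rhythm to output genes through D-boxes. In peripheral tissues of the mouse, the gut among them, Arntl transcripts run roughly in antiphase to those of Nr1d1 and Dbp, and the gut clock also responds to feeding and glucocorticoids.

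RefSeq windows on the mouse assembly GRCm38.p6 were available for 9 of the 10 genes (12 windows). The 250 bases before each start were searched on both strands for the E-box CACGTG, the E prime box CACGTT, the D-boxes TTATGTAA and TTATGCAA, the ROR element (held by 0.0426% of all windows) with its core TAGGTCA, which lies inside it (2.23%), and the cyclic AMP element TGACGTCA (1.55%). An E-box was present in the windows of Cry1, of both Tef starts and of 1 of 2 Per1 starts, against 6.02% of all 32851 windows. An E prime box was found for Cry1, Cry2 and Nr1d1 (3.85% of all windows), the D-box TTATGTAA at 2 places for Per3 (0.819%) and TTATGCAA for Per1 (0.694%). No window of these genes held the ROR element, its core or the cyclic AMP element. A match is a run of letters and no measured site, and the lack of a match (Dbp, Arntl, Nr1d2) says only that these letters are not there. The windows below belong to the cryptochrome genes, which are compared with each other below, to Nr1d1 and Tef, whose levels differed widely between arrays, and to Per3 with its D-boxes; they read 5′ to 3′ on the strand of the gene, with the matches in capitals.
Cry2, chr2:92434070-92434319, minus strand, E prime box: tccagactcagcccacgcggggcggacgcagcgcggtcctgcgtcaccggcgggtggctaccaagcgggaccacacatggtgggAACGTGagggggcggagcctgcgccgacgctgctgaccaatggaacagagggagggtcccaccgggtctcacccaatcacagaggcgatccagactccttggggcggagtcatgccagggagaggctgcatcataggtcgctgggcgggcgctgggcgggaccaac
Cry1, chr10:85185055-85185304, minus strand, E prime box and E-box: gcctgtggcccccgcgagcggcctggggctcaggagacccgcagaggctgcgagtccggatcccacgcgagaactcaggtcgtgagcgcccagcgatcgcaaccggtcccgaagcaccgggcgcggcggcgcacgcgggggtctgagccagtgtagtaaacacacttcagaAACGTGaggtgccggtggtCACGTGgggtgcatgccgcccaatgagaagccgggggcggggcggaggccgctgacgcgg
Nr1d1, chr11:98775378-98775627, minus strand, E prime box: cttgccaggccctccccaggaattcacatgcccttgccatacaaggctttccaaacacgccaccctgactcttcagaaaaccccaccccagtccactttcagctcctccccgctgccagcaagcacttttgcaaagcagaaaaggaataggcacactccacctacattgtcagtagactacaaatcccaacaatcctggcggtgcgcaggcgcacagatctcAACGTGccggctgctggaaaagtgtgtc
Tef, second start, chr15:81811164-81811413, plus strand, E-box: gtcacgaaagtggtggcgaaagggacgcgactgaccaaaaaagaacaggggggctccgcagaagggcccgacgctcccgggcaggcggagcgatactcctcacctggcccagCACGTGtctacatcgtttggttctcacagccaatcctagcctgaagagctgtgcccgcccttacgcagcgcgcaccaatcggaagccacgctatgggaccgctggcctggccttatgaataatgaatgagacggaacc
Per3, chr4:151044666-151044915, minus strand, both D-boxes: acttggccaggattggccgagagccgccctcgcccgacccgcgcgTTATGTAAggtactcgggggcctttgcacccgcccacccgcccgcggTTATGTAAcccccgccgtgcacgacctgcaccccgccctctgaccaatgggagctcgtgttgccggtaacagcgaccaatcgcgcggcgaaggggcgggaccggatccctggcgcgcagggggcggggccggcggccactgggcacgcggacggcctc

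On the arrays 55.6% to 69.3% of gene spots were well above background in the P90 channel and 64.6% to 71.0% in the P30 channel, and the number of arrays limits the precision of each value. All 10 colonocyte markers, Car1, Cdx2 and Epcam among them, passed the filter, of which 4 were saturated at P30 on all arrays, with a mean log2 level over the list of up to 14.87 at P90 and 14.63 at P30. The age ratios of array b ran against those of the other arrays: across the 27065 tested probes its correlation was -0.31 with array a, -0.28 with e and -0.18 with k (-0.303 with array a over all probes), whereas a, e and k correlated with one another at 0.32 to 0.60. The labelled direction was kept because the dye of every RNA is labelled. Values without array b and with its sign turned are among the alternatives.

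No clock gene rose or fell between the ages by the test across all probes. The repressor gene Cry2 and the output gene Tef had the smallest p, each with a brightest probe above 0 on all 4 arrays, at a log2 P90/P30 of 0.71 ± 0.40 and 0.39 ± 0.26 (SD, n = 4). Of the 17 probes, 0 passed limma's test after Benjamini-Hochberg adjustment at 0.05, beside 0% of all tested probes (0 of 27065; smallest adjusted p = 0.583). Counting unadjusted p below 0.05 gave 2 of 17 probes, both higher at P90, where 2.89% of all probes were higher and 5.15% lower (2177 probes in all). The same 2 were above 0 on all 4 arrays, against 6.58% of all probes, and 0 were below 0 on all 4, against 7.73%. The mean lay above 0 for 14 probes and below for 3, with a median of 0.12, while 45.6% of all tested probes had a mean above 0 with a median of -0.020. This lean depended on single arrays and on the scaling: 13 of 17 means were above 0 without array b, 8 of 17 without array e, and 6 of 17 with median centring in place of loess, a setting that moved the median of all tested probes to -0.20. The 95% interval of the mean lay within 1 log2 unit of 0, a 2-fold change, for 15 of the 17 probes. The exceptions were the brighter Cry2 probe and Nr1d2.

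**Figure D1:**
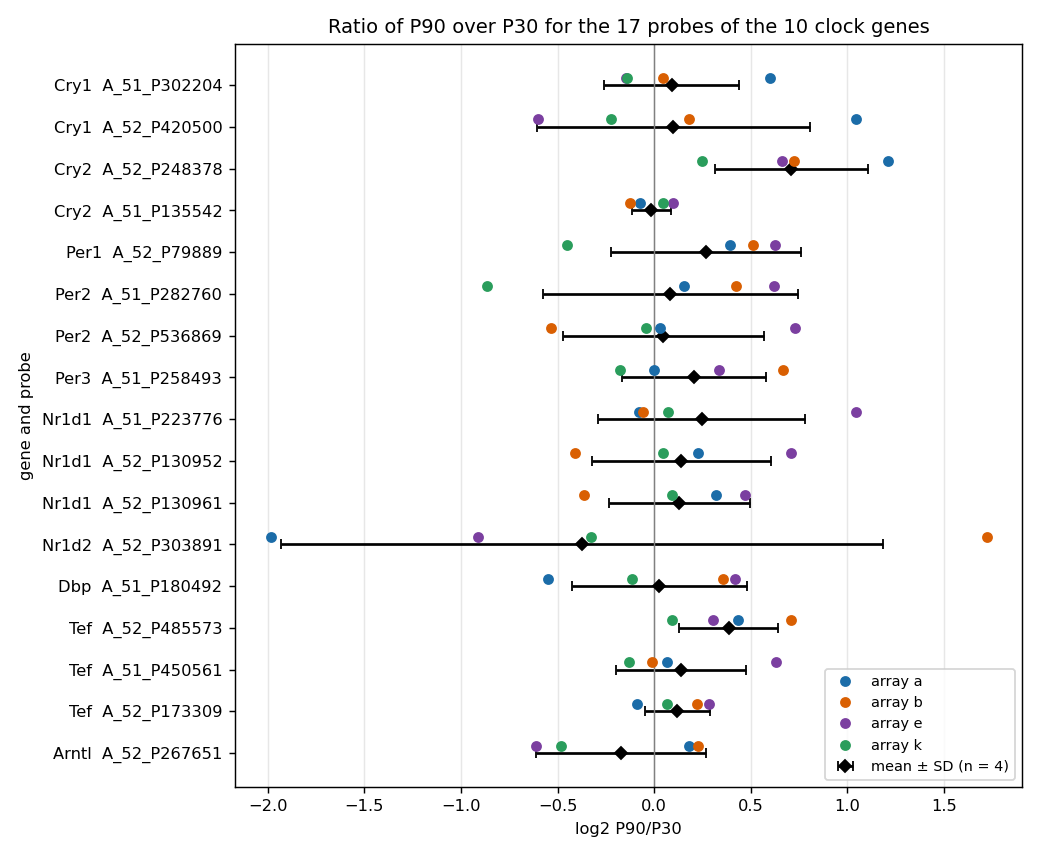
log2 P90/P30 (horizontal axis) of the 17 probes of the 10 clock genes (rows), with each array as a coloured point and the mean ± SD over 4 arrays as a black diamond with bars. The brighter probes of Cry2 and Tef lie above 0 on every array, and Nr1d2 spans from -1.98 on array a to 1.72 on array b.

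The cryptochromes are the strongest repressors of the loop. The brighter Cry2 probe had log2 levels of 9.95, 9.39, 8.63 and 9.19 on arrays a, b, e and k at P90, against 8.73, 8.66, 7.97 and 8.94 at P30. P90 was the higher of the pair on each array, although the ranges of the ages overlap. The log2 ratios were 1.21, 0.72, 0.66 and 0.25, with a mean of 0.71 (95% interval 0.26 to 1.16, 1.64-fold) and a limma adjusted p of 0.583. The mean was 0.54 without array a, 0.35 with array b turned and 0.33 with median centring, where the median of all tested probes was -0.20. The second Cry2 probe gave -0.015 ± 0.10 (SD, n = 4), with values from -0.12 to 0.10. That probe was dim: its P90 spot read 59, 79, 91 and 76.5 over local backgrounds of 42, 44, 69.5 and 42, and it was well above background on 3 of 4 arrays in each channel. From the scanner software's processed signals this second probe stood at 0.27. With a normexp offset of 10 it was at -0.035, and with no background correction at 0.033.

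Cry1 showed no common direction. Its brighter probe had levels of 9.02, 7.54, 6.94 and 6.63 at P90, against 8.42, 7.49, 7.08 and 6.77 at P30 on arrays a, b, e and k. Both ages were highest on array a and lowest on array k. The log2 ratio was 0.090 ± 0.35 (SD, n = 4), positive on a and b and negative on e and k, and the second probe had the same sign on each array, with 0.099 ± 0.71 and a value of 1.05 on array a. Without array a both means were negative (-0.079 and -0.22).

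The Period genes encode the partners of the cryptochromes in repression, and Per1 and Per2 also respond quickly to outside signals. Per1 had levels of 10.37, 10.70, 10.19 and 9.94 at P90, against 9.97, 10.19, 9.57 and 10.40 at P30. P90 was higher on a, b and e and lower on k, with log2 ratios of 0.39, 0.51, 0.63 and -0.45 and a mean of 0.27 ± 0.49 (SD, n = 4; limma adjusted p = 0.760). Per2 followed the same signs with its brighter probe, at 0.15, 0.43, 0.62 and -0.87 and a mean of 0.084 ± 0.66. The dimmer Per2 probe, at 0.046 ± 0.52, went the other way on array b, where it read -0.53. Per3, whose role in the loop is the smallest of the family, was at 0.21 ± 0.37, with 0.67 on array b and 0.34 on array e but -0.0023 on a and -0.18 on k. Its mean was 0.052 without array b and -0.13 with array b turned. Its P90 spot on array a read 69 over a background of 41, so low signal limits that ratio.

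The REV-ERB genes encode repressors of Arntl. Nr1d1 had levels of 8.32, 9.04, 9.97 and 10.503 at P90, against 8.40, 9.10, 8.92 and 10.43 at P30. The ages were nearly equal on a, b and k and apart on array e alone, where the log2 ratio was 1.05. Array e was the only array with the P90 RNA in Cy5. An effect of the dye and a difference of that pair cannot be told apart. Array e also had the highest median ratio of the adipocyte markers (6 of 7 tested), 5.78 against 0.50, 1.88 and 0.65 on a, b and k. Their mean levels were 8.24 to 13.6 at P90 and 7.61 to 8.36 at P30. The medians of the smooth muscle markers, the B and plasma cell markers and the genes of systemic cues were also highest on e, at 1.0003, 0.29 and 0.41. The part of these lists in the Nr1d1 value was not tested. The brightest Nr1d1 probe had a mean of 0.25 ± 0.54 (SD, n = 4), and -0.020 without array e. With a dye term its mean was 0.51 (limma adjusted p = 0.850). The other Nr1d1 probes gave 0.14 ± 0.46 and 0.13 ± 0.36, also with their highest values on array e (0.71 and 0.47). Nr1d2 had levels of 7.83, 8.99, 7.21 and 7.85 at P90, against 9.82, 7.27, 8.12 and 8.17 at P30. Its log2 ratios were -1.98, 1.72, -0.91 and -0.33, a mean of -0.38 with an SD of 1.56 that exceeded the SD of 99.1% of all tested probes. The mean was 0.16 without array a, -1.07 without array b and -1.24 with array b turned (limma adjusted p = 0.0957).

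Nr1d2 was above 0 on array b only. This pattern was shared by 8 of 8 tested fibroblast and matrix markers, 5 of 5 myeloid and 5 of 6 endothelial markers. It was also found for 2 of 10 colonocyte, 2 of 6 proliferating cell and 1 of 7 smooth muscle markers. Among clock pathway genes described below, 4 of 13 modifiers and 3 of 12 outputs had it. It was found for 0 of the adipocyte, goblet, T and NK cell, B and plasma cell, erythrocyte, and enteric neuron and glia markers. The share of all tested probes with this pattern was not counted, and array b ran against the other arrays across all of them. The median log2 ratio of the fibroblast and matrix markers was 1.65 on array b, against -3.94 on a, -2.32 on e and -2.95 on k. Their mean log2 level ran from 7.96 to 11.2 at P90 and from 9.50 to 12.6 at P30. Myeloid markers (5 of 6 tested, without Cd68) had medians of -1.54, 1.06, -0.44 and -1.68, with mean levels of 7.24 to 9.03 at P90 and 7.58 to 9.68 at P30. The endothelial list (6 of 6) had medians of -0.91, 0.94, -0.55 and -1.46, at 7.28 to 8.85 for P90 and 7.66 to 9.44 for P30. Per1 and the brighter Per2 probe shared their signs with the medians, though not with most members, of the smooth muscle markers (3 of 7: Des, Tagln and Cnn1). These medians were 0.31, 0.73, 1.0003 and -0.42, and the mean level of the list ran from 9.50 to 11.6 at P90 and from 10.2 to 10.9 at P30. The signs of Per1 were also found for 4 of 11 systemic cue genes, 2 of 13 modifiers and 2 of 12 outputs. They were found for 1 of 10 colonocyte and 1 of 3 enteric neuron and glia markers, and for no gene of the other lists. The share of all tested probes with the signs of Per1 was not counted. The part of these cell types in the clock ratios was not tested, and in bulk mucosa fewer cells of a type and less RNA per cell cannot be told apart.

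**Figure D2:**
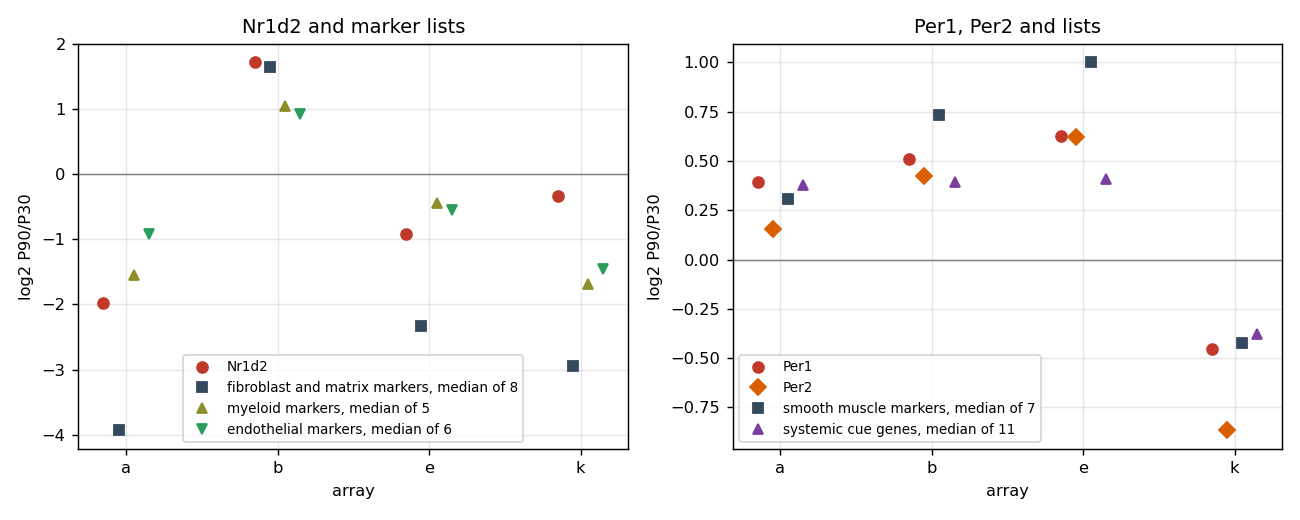
log2 P90/P30 on each array (horizontal axis) for Nr1d2 with the medians of the fibroblast, myeloid and endothelial marker lists (left), and for Per1 and Per2 with the medians of the smooth muscle markers and the systemic cue genes (right). Nr1d2 and the medians of the 3 marker lists are above 0 on array b only. Per1, the brighter Per2 probe and the medians of the other lists are below 0 on array k only.

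The output genes Dbp and Tef activate target genes through D-boxes. Dbp had levels of 10.35, 11.96, 13.24 and 13.92 at P90, against 10.90, 11.61, 12.83 and 14.03 at P30 on arrays a, b, e and k. The ages differed by at most 0.55 on an array, and the log2 ratio was 0.027 ± 0.45 (SD, n = 4; 95% interval -0.46 to 0.52). The brightest Tef probe had levels of 9.24, 9.92, 10.10 and 11.08 at P90, against 8.81, 9.22, 9.79 and 10.99 at P30. P90 was the higher on each array, by 0.44, 0.71, 0.31 and 0.091 (mean 0.39, 95% interval 0.024 to 0.75; limma adjusted p = 0.613). The mean of that Tef probe was 0.032 with array b turned and 0.0022 with median centring, where the median of all tested probes was -0.20. The dimmer Tef probes were at 0.14 ± 0.34 and 0.12 ± 0.17, each with values on both sides of 0. Arntl, the activator of the loop, had levels of 11.12, 10.52, 9.51 and 8.93 at P90, against 10.93, 10.29, 10.12 and 9.42 at P30. Its log2 ratio was -0.17 ± 0.44, with P90 higher on a and b and lower on e and k.

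Levels of several clock genes differed widely between the arrays at both ages. Averaged over the P90 and P30 RNA of an array, Dbp differed by 3.35 log2 units (10.2-fold) between array k, the highest, and array a, the lowest, while its mean age ratio on an array was 0.36 in size. Tef and Nr1d1 were also lowest on a and highest on k, with ranges of 2.01 (4.03-fold) and 2.11 (4.31-fold). Arntl and Cry1 had the opposite direction, highest on a and lowest on k, with ranges of 1.85 (3.61-fold) and 2.02 (4.07-fold). The direction between arrays a and k was the same in the P90 and the P30 RNA for these 5 genes: array k minus array a was 3.57 at P90 and 3.13 at P30 for Dbp, 1.84 and 2.18 for Tef, 2.18 and 2.03 for Nr1d1, -2.18 and -1.52 for Arntl, and -2.39 and -1.65 for Cry1.

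**Figure D3:**
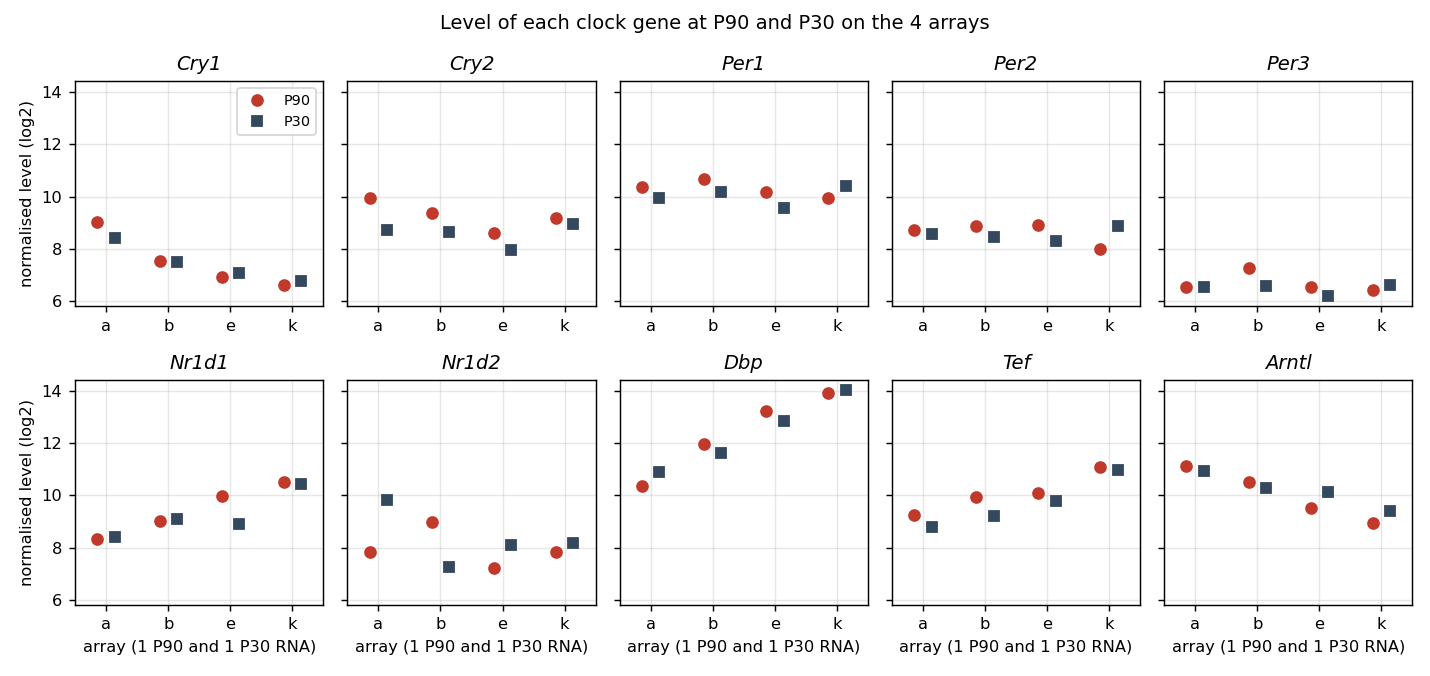
Normalised log2 level (vertical axis) of the probe of highest intensity of each clock gene on arrays a, b, e and k (horizontal axis), with P90 as red circles and P30 as dark squares. Dbp, Tef and Nr1d1 are lowest on array a and highest on array k at both ages, and Arntl and Cry1 are highest on a and lowest on k.

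A range above 1 log2 unit between the arrays was found for 9 of the 17 probes, against 17% of all tested probes, and for the brightest probe of 7 of the 10 genes. Over all tested probes the median range was 0.53. The further 2 genes were Nr1d2 (1.16) and Cry2 (1.04), whereas Per1 (0.56), Per3 (0.56) and Per2 (0.25) stayed below. Averaged over both ages, array k minus array a was -0.81 for Nr1d2, -0.00032 for Per1 and -0.021 for Per3. For Nr1d2 it was 0.015 at P90 and -1.64 at P30, so the ages did not share a direction. The range of Dbp exceeded that of 99.8% of tested probes, and those of Nr1d1, Cry1, Tef and Arntl exceeded 98.5%, 98.2%, 98.2% and 97.5%. Dbp and the brightest Tef probe had the order a, b, e, k from low to high at both ages, found for 1.85% of all tested probes. Arntl and the brighter Cry1 probe had the reverse order at both ages, found for 0.665%. These orders were noticed in the values and are a description of 4 arrays. The other Tef probes and the second Cry1 probe did not keep them. Averaged over both ages, the other Tef probes were at 6.80 and 6.32 on array b, against 6.62 and 6.16 on e. The second Cry1 probe was at 6.82 on b and 7.04 on e. Of the 5 genes with more than 1 probe, 3 had all probes on the same side between k and a: the other Nr1d1 probes were higher on k than on a by 1.22 and 0.58, the other Tef probes by 0.93 and 0.60, and the second Cry1 probe was at -1.26. For Cry2 and Per2 the probes were on opposite sides (-0.27 and 0.35 for Cry2, -0.23 and 0.66 for Per2). The difference between k and a for Dbp and Arntl was 3.75 and -1.96 with the processed signals of each channel set to its 75th percentile, and 3.46 and -1.96 with no scaling between arrays, where 1 gene in place of 2 kept each order. For Cry1 it was -3.30 with the processed signals, against -2.02. Without array a the range was 2.19 for Dbp, 1.40 for Nr1d1, 1.46 for Tef, 1.23 for Arntl and 0.81 for Cry1. Without array k it was 2.41, 1.09, 0.92, 1.21 and 1.71 for the same genes. The P90 and P30 values of an array come from the same spots, so what a spot adds to both is shared, and no test was made between arrays since each is 1 pair. A range over 4 arrays tends to exceed a mean over 4, so the fuller comparison is with the largest age ratio on any array: the range was the larger for Dbp (0.55), Nr1d1 (1.05), Cry1 (0.60), Tef (0.71) and Arntl (0.61), and the smaller for the other genes.

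**Figure D4:**
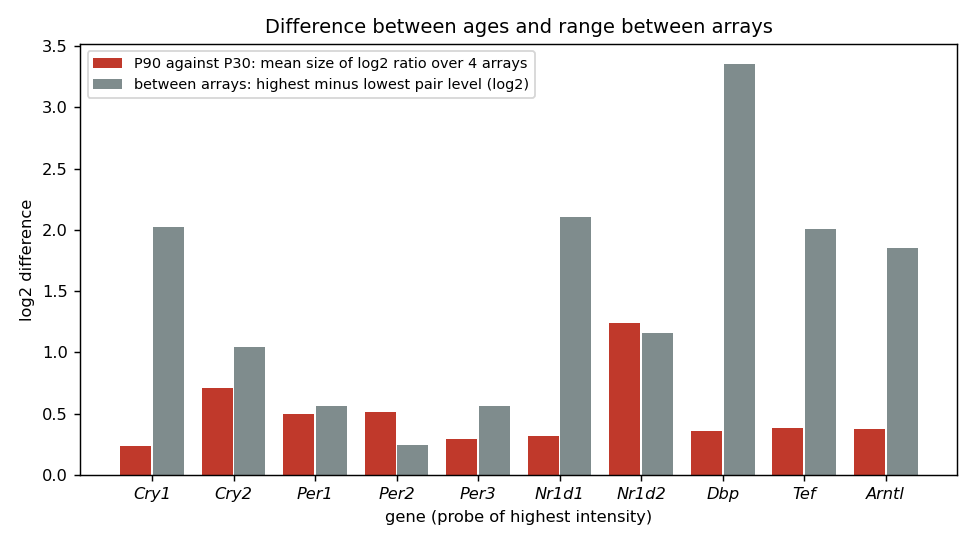
For the probe of highest intensity of each clock gene (horizontal axis), the mean size of the log2 P90/P30 ratio over 4 arrays (red) and the highest minus the lowest pair level between arrays (grey), both in log2 units. Dbp reaches 3.35 between arrays against 0.36 between ages, and the grey bar is the taller for all genes except Per2 and Nr1d2.

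Differences between related clock genes on the same array leave out whatever moves both alike. The study's labels name no such question, and 6 pairs were compared with an exact two-sided sign-flip permutation test, for which the smallest p that 4 arrays can give is 0.13 after rounding. Cry2 exceeded Cry1 in log2 P90/P30 on all 4 arrays, by 0.61, 0.68, 0.81 and 0.39 (mean 0.62 ± 0.18, SD, n = 4; exact p = 0.13, 0.375 adjusted over 6 pairs). With the mean of each gene's probes in place of the brightest the difference between Cry2 and Cry1 was 0.25 ± 0.42 and above 0 on 3 arrays. With array b turned it was 0.28, and with array e turned 0.22. Per1 exceeded Per2 on all 4 arrays by 0.0056 to 0.41 (mean 0.19 ± 0.18, exact p = 0.13, 0.375 adjusted). With the mean of each gene's probes the difference between Per1 and Per2 was 0.20 ± 0.29 and above 0 on 3 arrays. Neither difference can pass a threshold of 0.05 with this number of arrays.

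The remaining pairs did not keep 1 sign. Per3 minus Per2 was 0.12 ± 0.44 (SD, n = 4), Nr1d1 minus Nr1d2 0.62 ± 1.76, Dbp minus Tef -0.36 ± 0.46 and Arntl minus Nr1d1 -0.42 ± 0.91. The last, between the activator and its repressor, was 0.26 and 0.29 on arrays a and b but -1.66 on e and -0.56 on k. Without array e its mean was -0.0046. Nr1d1 minus Nr1d2 was 1.42 without array b, with 1 sign on the remaining arrays, 1.51 with array b turned, 0.19 without a and 0.18 without e. Per3 minus Per2 was 0.083 without b, 0.26 without e and -0.066 without k, and Dbp minus Tef was -0.15 without a. The 95% intervals of these 4 differences all include 0 and reach, at their widest, from -2.17 to 3.41 for the REV-ERB genes.

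**Figure D5:**
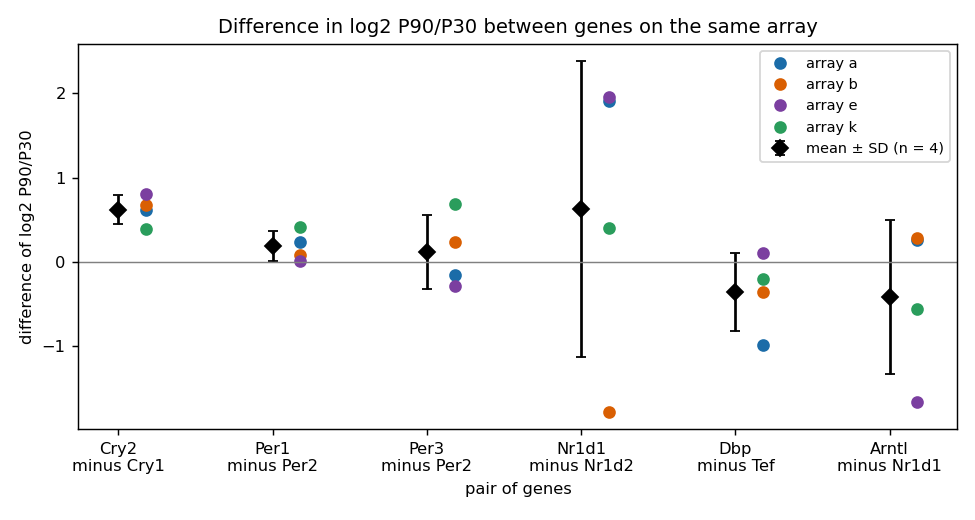
Difference of log2 P90/P30 between 2 genes on the same array (vertical axis) for 6 pairs of clock genes (horizontal axis), with each array as a coloured point and the mean ± SD over 4 arrays as a black diamond with bars. Cry2 minus Cry1 and Per1 minus Per2 are above 0 on all 4 arrays.

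Further genes of the clock pathway were taken from 4 lists, and 0 of their 47 tested members passed limma's test after adjustment in either direction (3 at an unadjusted p below 0.05, beside 8.04% of all probes). Of the clock partners and loop genes 11 of 14 were tested, 5 with a mean above 0 and 6 below (median -0.0033). Tipin, which works with Timeless at replication forks, was at -0.83 ± 0.35 (SD, n = 4) and below 0 on all 4 arrays, and Npas2, a stand-in for Clock, was at 0.26 ± 0.21. The proliferating cell markers had 6 of 6 means below 0, 4 of 6 below 0 on all 4 arrays (7.73% of all probes) and a median of -0.82. None of them passed the test after adjustment, and their part in the Tipin value was not tested. Of 13 tested genes that modify clock proteins 7 were above 0 and 6 below (median 0.0079), with the ubiquitin ligase subunit gene Btrc at 0.34 ± 0.33, the casein kinase gene Csnk1e at -0.42 ± 0.48 and the gene of the RNA-binding protein Nono at -0.26 ± 0.29. Of 12 clock-controlled output genes 6 were above and 6 below 0 (median -0.033), with the NAD synthesis gene Nampt at -0.99 ± 0.85, the cytochrome P450 reductase gene Por at 0.39 ± 0.43 and Pparg at -0.63 ± 0.87.

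The list of genes on which systemic cues of the clock act covered glucocorticoid and temperature, with 11 of 12 tested. Its array medians were 0.38, 0.39, 0.41 and -0.38 on a, b, e and k. These are the signs of Per1 and the brighter Per2 probe, but only 4 of the 11 genes had them. The share of all tested probes with these signs was not counted. The heat shock genes Hspa1b and Hspa1a were at 0.997 ± 1.09 and 1.11 ± 1.65 (SD, n = 4), and the glucocorticoid-induced kinase gene Sgk1 at -0.64 ± 0.84. Since the Hspa1 genes are close copies, their probes may not tell them apart. None of the 11 had 1 direction on all 4 arrays.

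Between arrays, 13 of these 47 genes had a range above 1 log2 unit, beside 17% of all tested probes, and all are named here. The shares of the partners, the modifiers (3 of 13) and the outputs (3 of 12) were near that background. Among the partners it was 1 of 11, Ciart, a repressor of the Arntl and Clock pair. Its array means were 6.46, 6.70, 7.40 and 8.14 on a, b, e and k, the order of Dbp and the brightest Tef probe. Among the modifiers it was Csnk1e (2.73), Sirt1 (2.34) and Prkaa1 (1.09), with Csnk1e and Sirt1 lower on a than on k. Among the outputs Ppara, a nuclear receptor of fat oxidation, ran from 8.44 on a to 11.04 on k, whereas Nampt ran from 11.5 on a to 9.75 on k and Noct from 12.6 to 11.5. Among the cue genes 6 of 11 passed this mark. The glucocorticoid target Tsc22d3 was at 13.3, 12.5, 12.3 and 11.4 on a, b, e and k, the order of Arntl and the brighter Cry1 probe. Hspa1b, Hspa1a, Hsph1, Sgk1 and Dusp1 had ranges of 3.10, 2.71, 1.81, 1.17 and 1.15. The marker lists also differed between arrays in their mean level, by 3.07 for adipocyte markers, highest on array e, by 2.23 for fibroblast and matrix markers, highest on e and lowest on k, and by 0.50 for colonocyte markers, highest on a and lowest on k. The colonocyte value is limited by saturation, since 4 of its 10 probes (Vil1, Krt20, Aqp8 and Car1) were saturated in the P30 channel on all 4 arrays. The part of these lists in the clock levels was not tested.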

How the data were processed

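Colonic mucosa RNA of P90 and P30 mice was measured on 4 two-colour arrays with 45018 spots each, 43379 of them gene spots. The deposited scanner files hold spot and local background intensity on a linear scale, before normalization per the file headers. The deposited processed signals are background-subtracted and scaled per dye, and their Cy5 to Cy3 ratio was deposited as log10, per the file headers. The series' value table matched that ratio, turned to log2 P90 over P30, within 0.01 for 80.0% to 87.0% of probes per array, so the authors deposited log2 values there; its medians were 0.21 (a), -0.17 (b), 0.049 (e) and 0.17 (k), and its centring is not stated. The outlier, background and saturation marks (other) were used as deposited. The software is Agilent Feature Extraction 10.5.1.1 per the file headers and 8.5.1.1 per the submitters' processing notes.

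Median spot and background signals were corrected with normexp (offset 50) and loess (span 0.3) in limma 3.58.1 under R 4.3.3, with outlier spots left out (127 to 156 per array) and no clock probe saturated. Ratios were turned to P90 over P30 and spots of 1 probe averaged. Levels are log2 signals per channel after loess and Aquantile scaling and are open to dye bias, since only array e is swapped. Probes well above background in 1 channel on at least 3 arrays were tested with lmFit and eBayes (4 arrays, threshold 0.05), each array being its own pair. Symbols came from RefSeq accessions (25097 of 41174 probes). On simulated ratios with the spread of 27051 probes, 25% of 2-fold and 73% of 4-fold changes were called. The simulated noise was independent between arrays, whereas the measured ratios were correlated between them, so these shares need not hold for the measured data. All members and lists were chosen with earlier results of these data known. Named genes are all members, and in each further list the 3 with the smallest p, of which 1 is not reported here; genes with a range above 1 between arrays, and the comparison of levels between arrays, were chosen after values were seen. Alternatives are in the closing section.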

Additional observations from a re-analysis of the deposited data

Results flagged for a closer look

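Of 23 sets of 4 values checked (17 probes and 6 differences between genes), 1 had an array far from the others, where chance flags about 1 in 20. The brightest Nr1d1 probe had a log2 P90/P30 of 1.05 on array e, while the other arrays lay between -0.076 and 0.073, so that the gap took up 0.867 of the range, above the 95% critical value of Dixon's test. Only on array e was the P90 RNA in Cy5, so a dye effect and a difference of that pair cannot be told apart. The median log2 ratio of the adipocyte markers was also highest on array e, at 5.78, against 0.50 to 1.88 on the others. So were the medians of the smooth muscle markers, the B and plasma cell markers and the systemic cue genes, at 1.0003, 0.29 and 0.41. The part of these lists in the Nr1d1 value was not tested.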

How the results depend on the processing

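The reported test was already paired, because each array holds its own P90 and P30 pair and the ratio is the paired value. No further pairing was made. Under 21 alternatives 0 clock probes and 0 genes of the further lists passed limma's test after adjustment. Over all probes 3 passed with the processed signals, with a normexp offset of 10, with the deposited log ratio and with the series' value table, and 0 under the other 17. The brighter Cry2 probe was above 0 in all 21 (0.33 to 0.89, lowest adjusted p 0.150), as was the brightest Tef probe (0.0022 to 0.52, lowest adjusted p 0.245). Other probes changed sign in the mean log2 P90/P30, named by gene for the brightest probe and with the probe for the others. With the processed signals it was 0.27 for Cry2 A_51_P135542. With no background correction it was 0.033 for Cry2 A_51_P135542. With median centring in place of loess, which moved the median of all tested probes to -0.20, it was -0.13 for Cry1, -0.072 for Cry1 A_52_P420500, 0.11 for Cry2 A_51_P135542, -0.14 for Per1, -0.27 for Per2, -0.044 for Per2 A_52_P536869, -0.12 for Nr1d1, -0.0064 for Nr1d1 A_52_P130952, -0.033 for Nr1d1 A_52_P130961 and -0.35 for Dbp. With the deposited log ratio it was -0.019 for Cry1 A_52_P420500 and 0.28 for Cry2 A_51_P135542. With the series' value table it was -0.019 for Cry1 A_52_P420500 and 0.28 for Cry2 A_51_P135542. With a dye term it was -0.13 for Cry1 A_52_P420500 and 0.022 for Cry2 A_51_P135542. With array weights it was 0.013 for Cry2 A_51_P135542 and -0.028 for Dbp. With arrays b and e left out it was -0.030 for Per1, -0.36 for Per2, -0.0071 for Per2 A_52_P536869, -0.090 for Per3, -0.0016 for Nr1d1, -0.33 for Dbp, -0.031 for Tef A_51_P450561 and -0.011 for Tef A_52_P173309. With the sign of array b turned it was 0.047 for Cry2 A_51_P135542, -0.13 for Per2, -0.13 for Per3 and -0.15 for Dbp. With the sign of array e turned it was -0.044 for Per1, -0.23 for Per2, -0.32 for Per2 A_52_P536869, -0.28 for Nr1d1, -0.21 for Nr1d1 A_52_P130952, -0.11 for Nr1d1 A_52_P130961, 0.081 for Nr1d2, -0.18 for Dbp, -0.18 for Tef A_51_P450561, -0.022 for Tef A_52_P173309, 0.13 for Arntl, -0.36 for Nr1d1 minus Nr1d2 and 0.41 for Arntl minus Nr1d1. Leaving out 1 array at a time, values ranged for Cry1 from -0.079 to 0.17, Cry1 A_52_P420500 from -0.22 to 0.33, Cry2 A_51_P135542 from -0.052 to 0.022, Nr1d2 from -1.07 to 0.16, Per2 from -0.095 to 0.40, Dbp from -0.10 to 0.22, Per2 A_52_P536869 from -0.18 to 0.24, Nr1d1 from -0.020 to 0.35, Nr1d1 A_52_P130952 from -0.047 to 0.33, Tef A_51_P450561 from -0.024 to 0.23 and Per3 minus Per2 from -0.066 to 0.26. Of the 6 differences between genes, 2 had 1 sign on all arrays in the values reported, and this was 1 with the processed signals, offset 10, the deposited log ratio, the value table or either sign turned, 0 with median centring or the mean of a gene's probes, 4 when both b and e were dropped, and 2 to 3 without 1 array. The level of Per1 on array k minus array a was 0.085 with processed signals, against a value near 0. The causes were not tested. Dim spots limit the second Cry2 probe, Per3 and the dimmest Tef probe, each below the background mark on at least 1 array. Level settings, the differences under other settings and the counts without array b were chosen after seeing the data.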
